A study of Mus musculus with 32 samples.

Results

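The genes described here are 39 genes of the DNA replication machinery, taken from a list of symbols. The rule uses no measured value, but the list was chosen with earlier results of these data known. By that rule, 38 of them were found by symbol in both deposited RNA-seq tables, out of 26560 genes in the Lin- table, 25887 in the CD11b+ table and 23620 in both. Cdt1 has no entry in the tables used, so its RNA level was not analysed here, and its eCLIP peaks, found by its annotated Ensembl ID, are given apart from the 38. The 38 genes fall into 11 of the replicative helicase, 6 of origin licensing and firing, 6 of the sliding clamp and its loader, 2 of the single-stranded DNA binding complex, 6 of the polymerases, 2 of Okazaki fragment joining, 4 of nucleotide supply, and E2f1.

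The study asked how IGF2BP3, an RNA-binding protein, acts in mouse leukemia driven by the fusion MLL-Af4. Its 32 libraries are 12 of RNA-seq, 10 of IGF2BP3 eCLIP and 10 of size-matched input (smInput). In eCLIP, RNA bound by the protein in UV-crosslinked cells is pulled down with an antibody and sequenced, and a peak is a stretch where reads pile up. The smInput libraries are size-matched controls made from the same samples, and peaks that overlap smInput peaks had been removed from the filtered peaks used here.

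Lin- cells are lineage-depleted mouse bone marrow cells transduced with the MSCV-MLL-FLAG-Af4 retrovirus, selected with G418 and grown in culture. From splenic tumors, CD11b+ cells were sorted with magnetic beads, the tumors being those of mice transplanted with MLL-Af4 cells. RNA-seq covers 6 libraries of each cell type, 3 of WT/MLL-Af4 and 3 of I3KO/MLL-Af4 cells, where I3KO is a germline deletion of Igf2bp3 that arose from an allele with loxP sites around exon 2 through leaky Vav1-Cre. The mean normalized count of each table pools both genotypes, and no comparison of genotypes is made here. Names of the eCLIP libraries of both cell types begin with bm, which the labels do not explain, so the splenic origin of the CD11b+ eCLIP cells rests on the written protocol. All eCLIP and smInput libraries came from WT/MLL-Af4 cells: 6 eCLIP libraries of Lin- cells, which are biological replicates 1, 2 and 3 and technical replicates 4, 5 and 6, and 4 of CD11b+ cells, which are biological replicates 1 and 2 and technical replicates 3 and 4. No pairing of technical with biological replicates is in the labels, and none was used. Ages of the mice are not in the labels.

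DNA replication starts where the origin recognition complex, with CDC6 and CDT1, loads the ring of MCM proteins onto DNA in G1 phase. CDC7 kinase, CDC45 and the GINS complex turn that ring into the active helicase, primase and the polymerases copy the strands, and PCNA, loaded by the RFC complex, holds the polymerases on DNA. Most of these genes are transcribed under E2F control around the G1/S transition, so their RNA is high in cycling cells such as leukemic progenitors. In an intron, the splice acceptor is its last bases before the next exon, and IGF2BP3 is known to bind CA-rich RNA.

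The cell type labels were checked against marker lists, with levels given as CPM, the counts per 1000000 of each table's summed means. Of the 5 progenitor markers, 4 were higher in Lin- cells: Kit was at 260 in Lin- and 33.4 in CD11b+, Cd34 at 337 and 64.0, Flt3 at 350 and 19.3, and Gata2 at 81.0 and 26.6, while Myb was at 844 and 1859, and the 5 summed to 1872 and 2002. The 6 myeloid markers summed to 1229 in Lin- and 4613 in CD11b+ cells, and Lyz2 was the most abundant of them at 781 and 3575, while Fcgr1 was lower in CD11b+ cells, at 6.17 and 1.76. Itgam, which encodes CD11b itself, had a level of only 0.841 CPM in the CD11b+ table and no entry in the Lin- table, although all 4 CD11b+ eCLIP libraries held peaks under its ID, in 11 merged regions, as did 2 Lin- libraries, in 2 regions. Whether the tables count reads at such loci, Itgam and Cdt1, in full could not be checked here. The myeloid character of the CD11b+ cells therefore rests on the other markers, not on the level of the marker they were sorted by.

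Granulocyte precursor markers summed to 5342 CPM in Lin- and 8569 in CD11b+ cells, with Mpo the most abundant in both at 3767 and 4167. T cell markers summed to 0.660 and 0.857, with Cd4 the most abundant in Lin- at 0.552 and Cd3e in CD11b+ at 0.279. B cell markers summed to 1.36 and 20.6, with Pax5 the most abundant in Lin- at 1.06 and Cd79a in CD11b+ at 7.23. Erythroid markers summed to 6.56 and 118, led by Klf1 at 2.94 in Lin- and by Hba-a1 at 62.8 in CD11b+. Stromal and endothelial markers summed to 265 and 193, almost all of it Pecam1 at 263 and 191. No marker with an entry was listed at 0, and Cd3e, like Itgam, had no entry in the Lin- table. The spleen-derived cells thus carried more B cell and erythroid RNA than the cultured cells, and its part in the levels given next was not tested.

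The replication genes were expressed well above the typical gene in both cell types. All 38 had a mean of at least 100 normalized counts in both tables, so none was lost to a filter on low values. Their median percentile among genes with a mean of at least 10 was 80.4 in the Lin- table, with a range from 48.8 to 98.5 over 16673 genes, and 75.2 in the CD11b+ table, with a range from 34.6 to 95.2 over 16191 genes. The median mean was 2208 normalized counts for these genes against 545 for all genes with a mean of at least 10 in Lin-, and 1141 against 379 in CD11b+. These means are pooled over both genotypes and come without a spread, so levels carry no error here.

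Between genes, levels were compared per kb of annotated exon. Pcna, the sliding clamp, had the highest Lin- mean at 3401 normalized counts per kb, followed by the helicase subunits Mcm6 at 2864, Mcm7 at 2844, Mcm3 at 2768 and Mcm5 at 2322. The lowest 5 were the origin recognition subunit Orc1 at 169, the GINS subunits Gins2 at 177 and Gins3 at 216, the licensing factor Cdc6 at 300 and the thymidylate synthase gene Tyms at 413. In the CD11b+ table the same 5 genes led, with Pcna at 2480, Mcm5 at 1414, Mcm3 at 1322, Mcm7 at 1275 and Mcm6 at 1111 normalized counts per kb. Orc1 at 52.8, Gins3 at 97.8, Gins2 at 108, the DNA polymerase alpha subunit Pola1 at 113 and Cdc6 at 140 were the lowest there. Genes of clamp and helicase ring were thus at the top in both cell types, and Orc1, Gins2, Gins3 and Cdc6 near the bottom.

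Since the 2 tables were normalized separately, levels were set against each other in CPM, with a pseudocount of 1. The 38 genes together took 4751 CPM in Lin- and 3047 in CD11b+ cells. Their median log2 ratio of Lin- over CD11b+ was 0.70, with a range from −0.11 to 1.76, against a median of 0.27 over the 17879 genes in both tables with a mean of at least 10 in either. A ratio above 0 was found for 37 of the 38 genes, and for 60.4% of all those genes. In bulk samples such as these, fewer cells in the cycle and less RNA per cell cannot be told apart.

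The size of this ratio depends on the scaling. Without rescaling, the median of all genes moved to 0.74 and that of the replication genes to 1.14, with 38 of 38 above 0. With the median of all genes set to 0, the median of the replication genes was 0.43, and 33 were above and 5 below it, namely Pcna, Rfc3, Rfc5, Lig1 and Tk1. All 3 proliferation markers moved the same way, at a sum of 1188 CPM in Lin- and 510 in CD11b+, with Mki67 the most abundant at 1064 and 424, and their part in the ratio was not tested.

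Single genes differed in this log2 ratio. The highest were 1.76 for Pola1, 1.16 for Orc1, 1.15 for Orc2, 1.15 for Pole, the catalytic subunit of polymerase epsilon, and 1.02 for Rfc1, the large subunit of the clamp loader. The lowest were −0.11 for Rfc3, 0.04 for Pcna, 0.05 for the DNA ligase gene Lig1, 0.10 for the thymidine kinase gene Tk1 and 0.23 for Rfc5. By role, the median log2 ratio was 0.85 for polymerases, 0.75 for origin licensing, 0.74 for the helicase, 0.67 for single-stranded DNA binding, 0.48 for nucleotide supply, 0.44 for Okazaki fragment joining, 0.41 for clamp and loader, and 0.32 for E2f1. Clamp and loader genes spanned −0.11 to 1.02, so the roles overlapped widely.

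**Figure D1:**
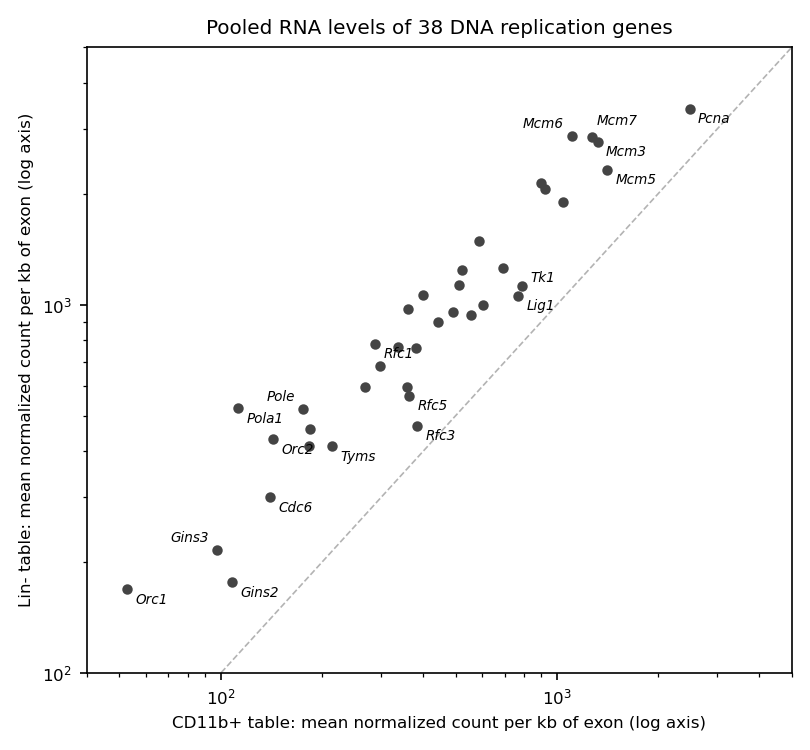
Each point is 1 of the 38 genes, with its mean normalized count per kb of exon in the CD11b+ table (horizontal, log axis) and in the Lin- table (vertical, log axis), and the dashed line marks equal deposited values, which were normalized separately. Pcna is at the top with 3401 and 2480 and Orc1 at the bottom with 169 and 52.8, and all 38 points lie above the line before rescaling, while 33 do when the median gene is set equal.

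IGF2BP3 peaks were found on nearly all of these genes in Lin- cells. At least 1 filtered peak in any Lin- library was present on 35 of 38 genes (92.1%), against 26.5% of all genes in the Lin- table and 51.9% of genes with a mean of at least 100. In CD11b+ cells it was 16 of 38 (42.1%), against 25.6% of all genes and 47.9% of genes with a mean of at least 100. So by a peak in any library, the share in CD11b+ cells was close to that of genes with a mean of at least 100. The share in Lin- cells was well above it. That set is not matched for level: within it, the median percentile of the 38 was 73.2 in Lin- and 65.4 in CD11b+. The part of RNA level in these shares was not tested. Gene counts also depend on the libraries and the peak threshold. Biological libraries alone gave 33 genes in Lin- and 9 in CD11b+ cells, and a peak p below 0.001 gave 20 and 3. The shares of all genes under these settings were not examined, so these drops are not read as particular to the 38.

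Fewer genes had peaks in at least 2 biological libraries, which asks for 2 of 3 libraries in Lin- but for 2 of 2 in CD11b+ cells. In Lin- cells 15 of 38 genes (39.5%) met this, against 13.7% of all genes and 27.8% of those with a mean of at least 100. In CD11b+ cells only E2f1 did (2.63%), against 10.2% and 20.5%. Mcm5, Mcm7, Pcna, Pola2 and Rrm2 had a peak in all 6 Lin- libraries, and E2f1 in all 4 CD11b+ libraries. Orc1, Gins2 and the primase subunit Prim2 had no filtered peak in any of the 10 libraries.

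The libraries differed in how many peaks they gave, which is the only measure of yield here, and the number of reads behind each library was not analysed here. Filtered peaks numbered 7361, 10042 and 8685 in Lin- biological replicates 1, 2 and 3, and 4040, 6494 and 4510 in technical replicates 4, 5 and 6. CD11b+ libraries held 8521 and 10054 in biological replicates 1 and 2, and 7586 and 7085 in technical replicates 3 and 4. CD11b+ yields were thus as high as Lin- ones. The smInput filter had taken 10.8% to 25.9% of all peaks from each library and 0 peaks of the 38 genes.

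Counts for the replication genes went the other way. Peaks on the 38 genes numbered 54, 27 and 38 in Lin- biological replicates and 28, 17 and 15 in Lin- technical ones, but 3 and 11 in CD11b+ biological and 5 and 7 in CD11b+ technical replicates. Genes with a peak numbered 24, 15 and 21 in Lin- biological, 16, 8 and 9 in Lin- technical, 3 and 7 in CD11b+ biological, and 5 and 7 in CD11b+ technical replicates. Every Lin- library was above every CD11b+ library in both counts.

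Over the independent biological replicates, the number of genes with a peak was 20.0 ± 4.58 (SD, n = 3) in Lin- and 5.00 ± 2.83 (SD, n = 2) in CD11b+ cells, a difference of 15.0 (two-sided exact permutation test, p = 0.1). With 10 arrangements, 0.1 is the smallest p this design can give. Per 1000 filtered peaks of the library, peaks on the 38 genes numbered 7.34, 2.69 and 4.38 in Lin- and 0.352 and 1.09 in CD11b+ biological replicates, and 6.93, 2.62 and 3.33 in Lin- and 0.659 and 0.988 in CD11b+ technical replicates. The means were 4.80 ± 2.35 (SD, n = 3) and 0.723 ± 0.525 (SD, n = 2), a difference of 4.08 (exact permutation test, two-sided, p = 0.2). The ranges did not overlap, but the Lin- libraries varied widely and neither test can pass a threshold of 0.05. RNA of these genes was also more abundant in Lin- cells, and its part in the difference was not tested.

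**Figure D2:**
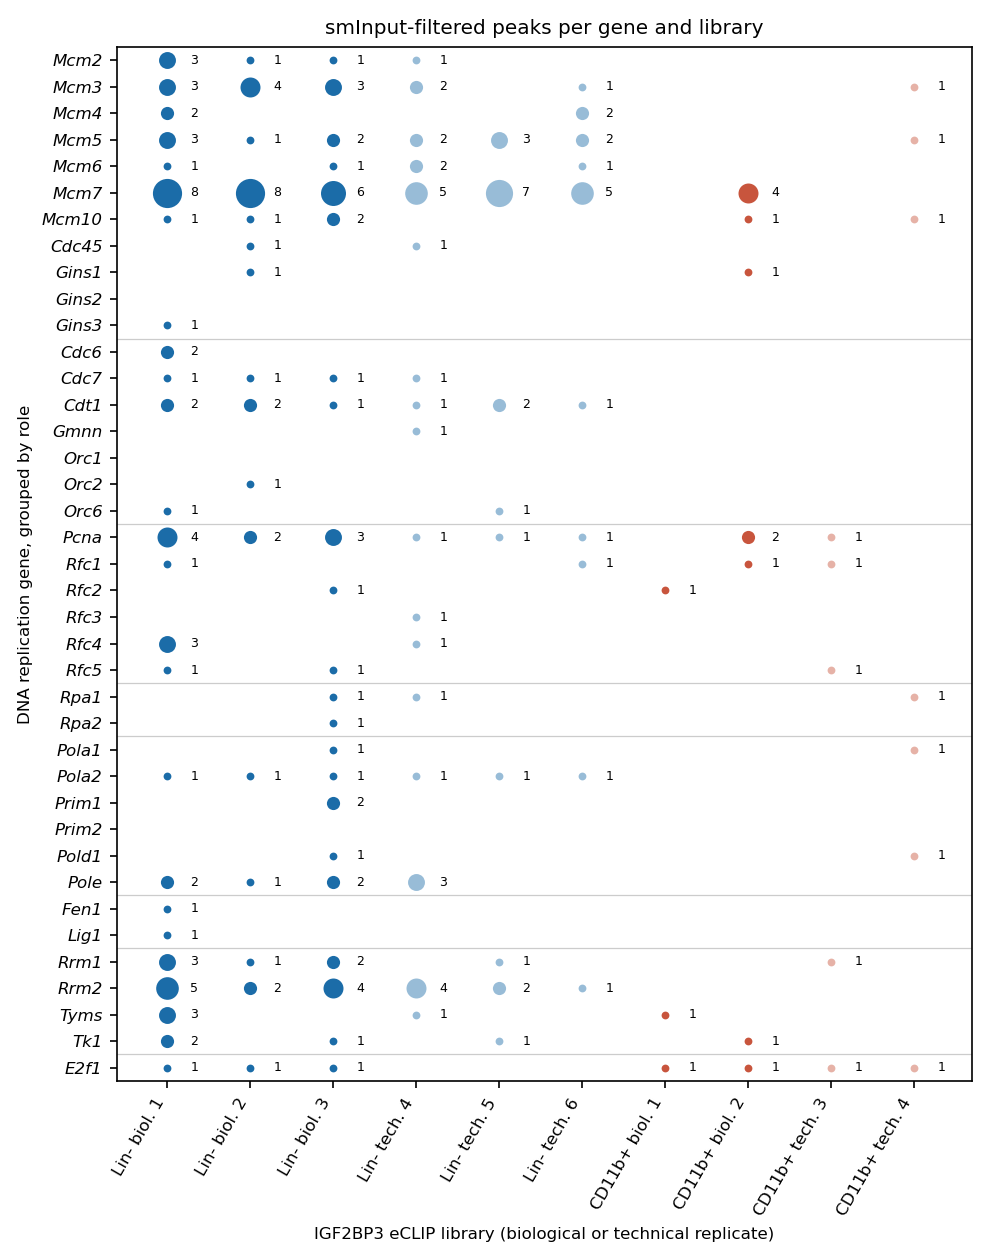
Each dot marks filtered IGF2BP3 peaks on 1 gene (vertical, grouped by role, 39 genes with Cdt1) in 1 eCLIP library (horizontal), with the count beside it, dot area by count, Lin- in blue, CD11b+ in red and technical replicates paler. Mcm7 leads with 5 to 8 peaks in every Lin- library, and E2f1 is the gene with a peak in all 4 CD11b+ libraries.

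Overlapping peaks were merged within a cell type, which gave 95 regions on the 38 genes in Lin- and 20 in CD11b+ cells. The replicative helicase held 38 of the 95 Lin- regions, on 10 of its 11 genes. Mcm7, a subunit of the MCM ring at chr5, had 8, 8 and 6 peaks in Lin- biological and 5, 7 and 5 in Lin- technical replicates, against 4 in CD11b+ biological replicate 2 and 0 in the other CD11b+ libraries. Its peaks merged into 10 Lin- regions, a number reached by 2.95% of the 7045 genes of the Lin- table with a region. It had the most merged regions of the 38 genes, a count that does not account for gene length.

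Mcm7 holds microRNA hairpins inside one of its introns, which code for Mir25, Mir93 and Mir106b, and peaks lay on all 3. Reads in the Mcm7 peaks on Mir93 (chr5:138165523-138165610, minus strand) summed to 16, 62 and 31 in Lin- biological and 9, 21 and 19 in Lin- technical replicates, and to 5 in CD11b+ replicate 2. On Mir106b (chr5:138165737-138165818) the sums were 15, 55 and 17 in Lin- biological and 7, 16 and 12 in Lin- technical replicates, and 3 in CD11b+ replicate 2. On Mir25 (chr5:138165321-138165404) they were 11, 13 and 0, then 0, 8 and 3, and 3 in CD11b+ replicate 2. All 6 Lin- libraries thus marked Mir93 and Mir106b, while Mir25 had a peak under either its own or the Mcm7 ID in 5 of 6. No smInput library had a peak on any of the 3 hairpins.

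The merged region on Mir93 is printed because it was found in all 6 Lin- libraries. It reads, 5′ to 3′ on the minus strand of GRCm38 (chr5:138165534-138165596), with the bases of mature miR-93-5p and miR-93-3p in capitals:
Mcm7 intron at Mir93: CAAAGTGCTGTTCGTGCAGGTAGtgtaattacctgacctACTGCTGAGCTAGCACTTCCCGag
The 5′ end of the region is the first base of miR-93-5p, and the region covers both mature arms and the loop between them. Mature sequences from RefSeq (GRCm38.p6), with the seed at bases 2 to 8 in capitals, show that miR-93-5p and miR-106b-5p share a seed that miR-25-3p lacks:
mmu-miR-93-5p: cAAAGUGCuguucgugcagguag
mmu-miR-106b-5p: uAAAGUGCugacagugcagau
mmu-miR-25-3p: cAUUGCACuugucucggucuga

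Outside the hairpins, the main Mcm7 region, chr5:138169462-138169569, crossed a splice acceptor and a splice donor. Its peaks held 22, 23 and 12 reads in Lin- biological and 11, 19 and 9 in Lin- technical replicates, and 3 in CD11b+ replicate 2. It was thus marked in all 6 Lin- libraries and in 1 of 4 CD11b+ libraries.

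**Figure D3:**
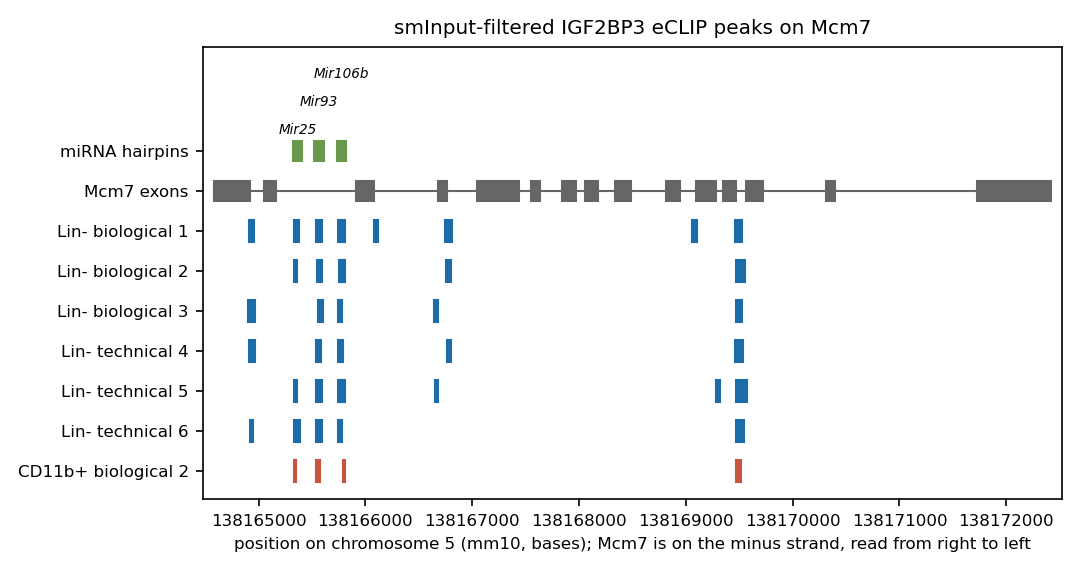
The map shows Mcm7 on chromosome 5 (horizontal, mm10 position in bases, gene read from right to left) with exons in gray, the 3 microRNA hairpins in green, and filtered peaks of each library with any in blue (Lin-) and red (CD11b+). Peaks stack on Mir93, on Mir106b and at 138169462-138169569 in all 6 Lin- libraries and in CD11b+ biological replicate 2.

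The other MCM ring genes had fewer peaks. Mcm5 had 3, 1 and 2 peaks in Lin- biological, 2, 3 and 2 in Lin- technical, and 1 in CD11b+ technical replicate 4. Its leading region, chr8:75121163-75121234, crossed a splice acceptor in all 6 Lin- libraries, with 13, 13 and 10 reads in biological and 10, 11 and 7 in technical replicates. Mcm3 had 3, 4 and 3 peaks in Lin- biological, 2, 0 and 1 in Lin- technical, and 1 in CD11b+ technical replicate 4. The leading Mcm3 region, chr1:20812678-20812742, also crossed an acceptor, with 21, 11 and 4 reads in Lin- biological replicates and 16, 0 and 4 in technical ones. Both genes were marked in every Lin- biological replicate and in neither CD11b+ biological replicate.

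Mcm2 had 3, 1 and 1 peaks in Lin- biological and 1, 0 and 0 in Lin- technical replicates, and Mcm6 had 1, 0 and 1, then 2, 0 and 1. The Mcm6 region at chr1:128338268-128338328 crossed an acceptor in 4 Lin- libraries with 3 to 7 reads. Mcm10, which helps to activate the helicase, had 1, 1 and 2 peaks in Lin- biological and 0 in Lin- technical replicates, and 1 each in CD11b+ replicates 2 and 4. Mcm2 and Mcm6 had no CD11b+ peak, while the CD11b+ peaks of Mcm10 lay on a TG repeat described with the repeats. Mcm4, Cdc45, Gins1 and Gins3 had peaks in 1 or 2 Lin- libraries each, and Gins1 in 1 CD11b+ library.

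Origin licensing genes were thinly marked, with 7 Lin- regions on 5 of 6 genes and 0 CD11b+ regions. Cdc7, the kinase that fires origins, had 1 peak in each Lin- biological replicate and 1, 0 and 0 in technical ones, in a single region across an acceptor, chr5:106975439-106975506, with 4, 7 and 4 reads and then 3. Cdc6 had 2 peaks in Lin- replicate 1, Orc6 had 1 each in Lin- replicates 1 and 5, and Orc2 and the licensing inhibitor Gmnn had 1 peak in 1 Lin- library each. Only Cdc7 was thus marked in more than 1 biological library.

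Cdt1, the MCM loading factor without an RNA level here, had 2, 2 and 1 peaks in Lin- biological and 1, 2 and 1 in Lin- technical replicates. They merged into 4 regions, 3 of which crossed a splice acceptor, and the CD11b+ and smInput libraries had 0 peaks on Cdt1. Its leading region, chr8:122571647-122571713, was found in 4 Lin- libraries with 8 reads in biological replicate 1, 3 in biological replicate 3, 3 in technical replicate 5 and 4 in technical replicate 6. With Cdt1 among the licensing genes, 2 of them were marked in all 3 Lin- biological replicates.

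Clamp and loader genes held 14 Lin- regions on 6 of 6 genes and 5 CD11b+ regions on 4. Pcna had 4, 2 and 3 peaks in Lin- biological, 1 in each Lin- technical, 0 and 2 in CD11b+ biological, and 1 and 0 in CD11b+ technical replicates. Of the clamp loader subunits, Rfc4 had 3, 0 and 0 peaks in Lin- biological and 1, 0 and 0 in Lin- technical replicates, with 0 in CD11b+ ones, and Rfc5 had 1, 0 and 1, then 0, with 1 in CD11b+ technical replicate 3. Rfc1, Rfc2 and Rfc3 each had 1 peak in 1 or 2 Lin- libraries, and Rfc1 and Rfc2 also had CD11b+ peaks. Apart from Pcna, the group was thus thinly marked, with peaks of 3 to 6 reads.

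Single-stranded DNA binding genes had little: Rpa1 had 1 peak in Lin- biological replicate 3, Lin- technical replicate 4 and CD11b+ technical replicate 4, and Rpa2 had 1 in Lin- biological replicate 3. Polymerase genes held 10 Lin- regions on 5 of 6 genes. Pola2, the regulatory subunit of polymerase alpha, had 1 peak in each of the 6 Lin- libraries and 0 in CD11b+ ones. In 5 of the 6 it was the same region across an acceptor, chr19:5953141-5953205, with 32, 5 and 11 reads in biological and 15 and 7 in technical replicates 4 and 5. Pole had 2, 1 and 2 peaks in Lin- biological and 3, 0 and 0 in Lin- technical replicates, and 0 in CD11b+ ones. Pola1, Prim1 and Pold1 had their Lin- peaks in biological replicate 3 alone, and Pola1 and Pold1 had 1 each in CD11b+ technical replicate 4. In Okazaki fragment joining, the flap nuclease gene Fen1 and Lig1 had 1 peak each, both in Lin- biological replicate 1 and both across an acceptor.

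Nucleotide supply genes held 19 Lin- regions on all 4 genes. Rrm2, the small subunit of ribonucleotide reductase, had 5, 2 and 4 peaks in Lin- biological and 4, 2 and 1 in Lin- technical replicates, and 0 in the 4 CD11b+ libraries. Its 9 merged regions were a number reached by 4.29% of genes with a region in Lin- cells. Rrm1, the large subunit, had 3, 1 and 2 peaks, then 0, 1 and 0, with 1 in CD11b+ technical replicate 3. Tyms had 3, 0 and 0, then 1, 0 and 0, with 1 in CD11b+ biological replicate 1, and Tk1 had 2, 0 and 1, then 0, 1 and 0, with 1 in CD11b+ biological replicate 2. Rrm2 thus came next after Mcm7 by number of Lin- regions, and had no CD11b+ region.

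The deepest peaks on any of the 38 genes lay at the starts of Rrm2 and Pcna. The Rrm2 region chr12:24708301-24708425, which spans the start codon, had a highest peak of 12, 117 and 54 reads in Lin- biological and 0, 79 and 28 in Lin- technical replicates. In the 5′ UTR of Pcna, chr2:132253102-132253171, the peaks held 4, 79 and 28 reads in Lin- biological and 0, 47 and 23 in Lin- technical replicates. Both were thus deepest in biological replicate 2, shallow in replicate 1 and without a peak in technical replicate 4. A further region of this kind, in the 5′ UTR of Rrm1 (chr7:102441846-102441932), had 13 reads in biological replicate 2 and 7 in technical replicate 5. No CD11b+ library had a peak on any of the 3 regions.

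To show these sites, 30 bases around the Rrm2 start codon, in capitals, from the plus strand of GRCm38 (chr12:24708332-24708361), and the middle 30 bases of the Pcna region, from the minus strand (chr2:132253122-132253151), are given 5′ to 3′:
Rrm2 start: ctgccctcgttcgccATGctctccgtccgc
Pcna 5′ UTR: tagttgtcgctgtaggccttcgctgccgct
Neither region held a CA or TG repeat of the kind searched for in all regions.

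E2f1, the transcription factor of the G1/S program, was the only gene of the 38 marked in every CD11b+ library, and at a different place in each cell type. In Lin- biological replicates 1, 2 and 3 it had 1 peak each, with 9, 4 and 4 reads, in Lin- technical replicates 4, 5 and 6 it had 0, and the 2 merged regions crossed splice acceptors. In CD11b+ cells, 1 region of the 3′ UTR, chr2:154560330-154560465, held 10 and 7 reads in biological and 18 and 17 in technical replicates. No Lin- library had a peak on that 3′ UTR region, and no CD11b+ library on the acceptor regions.

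By position, most regions of the replication genes had their middle base in an intron: 89 of 95 (93.7%) in Lin-, against 77.5% of all 20608 Lin- regions, and 18 of 20 (90.0%) in CD11b+, against 83.7% of 17735. The few others in Lin- cells were 3 in coding exons, 1 in the 3′ UTR of Mcm10 and 2 in the 5′ UTRs of Pcna and Rrm1, and in CD11b+ cells 2 in the 3′ UTRs of E2f1 and Pcna. Many reached into an exon, since 21 of the 95 Lin- regions (22.1%) lay wholly in an intron, against 36.4% of all Lin- regions, and 13 of the 20 CD11b+ regions (65.0%), against 74.3% of all CD11b+ regions. The contrast between the cell types was thus present over all regions, and in each the replication genes had a somewhat lower share.

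Splice acceptors were crossed more often than donors. In Lin- cells, 53 of 95 regions (55.8%), on 28 genes, crossed one, against 32.4% of all Lin- regions, and 18 (18.9%) crossed a donor, against 13.5%, and 69 (72.6%) crossed either, against 44.7%. In CD11b+ cells 4 of 20 (20.0%) crossed an acceptor, against 5.84% of all CD11b+ regions, and 1 (5.00%) a donor, against 4.48%. The acceptor regions in Lin- cells began 31 to 96 bases before the exon, with a median of 47, and ended 1 to 32 bases into it, with a median of 8. They thus covered the end of the intron rather than the exon. By role, acceptor regions in Lin- cells numbered 20 of 38 for the helicase, 2 of 7 for licensing, 10 of 14 for clamp and loader, 1 of 3 for single-stranded DNA binding, 7 of 10 for polymerases, 2 of 2 for Okazaki fragment joining, 9 of 19 for nucleotide supply and 2 of 2 for E2f1.

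Libraries differed in this share, both for these genes and for all peaks. Peaks across an acceptor were 35 of 54, 9 of 27 and 18 of 38 in Lin- biological and 20 of 28, 3 of 17 and 7 of 15 in Lin- technical replicates. Over all peaks the shares in the same order were 44.9%, 13.9% and 31.8%, then 42.4%, 13.8% and 31.2%, so technical replicates 4, 5 and 6 lay nearest to biological replicates 1, 2 and 3. The share for the replication genes was above that of all peaks in each of the 6 Lin- libraries. CD11b+ libraries had 2 of 3 and 2 of 11 in biological and 1 of 5 and 0 of 7 in technical replicates, against 4.76%, 5.62%, 4.17% and 3.81% of all peaks.

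Biological replicate 1 carried many of the Lin- acceptor regions. The 3 Lin- biological libraries together gave 80 regions, of which 57.5% crossed an acceptor, and replicates 2 and 3 alone gave 53, of which 39.6% did. Leaving out replicate 3 gave 63 regions, of which 58.7% crossed one. In CD11b+ cells, biological replicate 1 alone gave 3 regions on 3 genes, and replicate 2 alone 11 regions on 7 genes. An acceptor was crossed by 66.7% of those 3 regions and by 18.2% of those 11. So the region counts and the acceptor share rest in part on single libraries in both cell types.

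Acceptor regions of 5 genes, each found in at least 4 Lin- libraries, are printed to show what such a region holds, 5′ to 3′ on the strand of the gene in GRCm38 and with the exon in capitals. They lie at chr8:75121163-75121234 (plus strand), chr19:5953141-5953205 (minus), chr1:20812678-20812742 (minus), chr5:106975439-106975506 (plus) and chr8:122571647-122571713 (plus):
Mcm5: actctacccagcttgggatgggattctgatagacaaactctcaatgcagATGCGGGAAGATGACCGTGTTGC
Pola2: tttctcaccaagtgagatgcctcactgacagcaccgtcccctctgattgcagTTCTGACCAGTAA
Mcm3: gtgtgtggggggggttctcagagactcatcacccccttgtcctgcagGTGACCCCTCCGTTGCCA
Cdc7: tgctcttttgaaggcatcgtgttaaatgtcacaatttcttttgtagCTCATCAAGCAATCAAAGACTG
Cdt1: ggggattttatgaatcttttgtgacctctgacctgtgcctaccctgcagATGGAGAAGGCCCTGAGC
Each intron part ends in the AG of the acceptor, and none of these 5 regions holds ACACAC or CACACA, while that of Mcm3 opens with a short TG repeat.

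By the motif used here, CA repeats were rare on these genes in Lin- cells. ACACAC or CACACA, read on the strand of the RNA, was in 3 of 95 regions (3.16%), against 8.35% of all Lin- regions, and in 3 of 20 (15.0%) in CD11b+ cells, against 17.0%. Among Lin- regions across an acceptor, it was in 1 of 53 (1.89%), against 2.22% of all such Lin- regions. The shorter CACA was in 13.7% of the Lin- and 20.0% of the CD11b+ regions, and its share over all regions was not examined. The reverse complement repeat, TGTGTG or GTGTGT, was in 4 regions (4.21%) in Lin-, against 8.09%, and 4 (20.0%) in CD11b+, against 24.0%. Shares in CD11b+ cells were thus near those of all regions, and those in Lin- cells below, and in both cell types repeat regions were outnumbered by others.

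In CD11b+ cells the repeat regions lay on E2f1, Mcm10, Pold1 and Rfc5 with TG and, among others, on Tk1 and Pola1 with CA, and in Lin- cells on Cdc6, Mcm3, Mcm10 and Rfc2 with TG and on Mcm3, Rpa1 and Tk1 with CA. Mcm10 had an intronic TG repeat with 7 reads in CD11b+ biological replicate 2 and 3 in technical replicate 4. Tk1 was chosen after its values were seen, because its CA repeat was marked in both cell types, with 11 and 5 reads in Lin- biological replicates 1 and 3, 4 in technical replicate 5 and 5 in CD11b+ biological replicate 2. Regions are named by the location of their middle base, and the Tk1 region crosses a splice donor, so its first bases are exon and are not marked. Capitals mark the repeats in the middle 30 bases of the E2f1 region (chr2:154560383-154560412), and in the whole regions of Mcm10 (chr2:4994368-4994442) and Tk1 (chr11:117816389-117816464, from Lin- cells), all on the minus strand of GRCm38 and written 5′ to 3′:
E2f1 3′ UTR: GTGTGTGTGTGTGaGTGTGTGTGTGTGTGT
Mcm10 intron: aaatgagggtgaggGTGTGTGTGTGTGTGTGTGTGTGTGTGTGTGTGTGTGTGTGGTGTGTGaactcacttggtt
Tk1 intron: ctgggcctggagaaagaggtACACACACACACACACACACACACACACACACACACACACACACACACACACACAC

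Of the 95 Lin- regions, 10 (10.5%) overlapped a CD11b+ one, against 25.1% of all Lin- regions, and of the 20 CD11b+ regions, 10 (50%) overlapped a Lin- one, against 29.7% of all CD11b+ regions. A small share of the many Lin- regions was thus common to both cell types, and a larger share of the few CD11b+ ones. The 3 Mcm7 hairpin regions, the main Mcm7 region and the Tk1 repeat were among the shared ones. In Lin- cells 35 of 95 regions (36.8%) were found in at least 2 libraries, against 38.1% of all Lin- regions, and in CD11b+ cells 4 of 20 (20.0%), against 42.8%. These counts include technical libraries, 3 of the 4 CD11b+ regions were found in only 1 biological library, and the differences from all regions were not tested.

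The smInput libraries had few peaks on these genes. They numbered 3, 1, 0, 1, 0 and 0 in Lin- inputs 1 to 6, out of 1808, 1379, 1332, 1215, 217 and 1047 peaks, and 2 in each of the 4 CD11b+ inputs, out of 1665, 1885, 1381 and 1833. All lay on Prim2, Rpa1 and Mcm3, in introns. The Mcm3 one, chr1:20805367-20805378 in CD11b+ input 1, overlapped a Lin- eCLIP region of 1 library, chr1:20805333-20805370, and those on Prim2 and Rpa1 overlapped no eCLIP region of these genes.

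The 42 other pathway genes, from a list not picked by value though chosen with earlier results known, were all found in the tables. In Lin- cells 33 (78.6%) had a filtered peak in any library, against 26.5% of all genes and 51.9% of genes with a mean of at least 100. In at least 2 biological libraries 16 (38.1%) had one, against 27.8% of genes with a mean of at least 100: Orc4, Pold3, Topbp1, Wdhd1, Clspn, Timeless, Mcmbp, Rnaseh2a, Dut, Chaf1a, Slbp, Chtf18, Top1, Top2a, E2f7 and Tfdp1. In CD11b+ cells 18 (42.9%) had a peak in any library, against 25.6% of all genes and 47.9% of genes with a mean of at least 100. In both biological libraries 8 (19.0%) had one, against 20.5% of genes with a mean of at least 100: Orc4, Mcmbp, Top1, E2f2, E2f3, E2f8, Tfdp1 and Rb1. The share in CD11b+ cells was thus near that of genes with a mean of at least 100, a set not matched for level. The median log2 level ratio of Lin- over CD11b+ was 0.71 for the 42, with a range from −0.97 to 1.77 and 37 above 0, next to 0.70 for the 38.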

How the data were processed

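The members and lists were chosen with earlier results of these data known. For RNA-seq, the authors mapped reads to mm10 with STAR (2.5.3a per the labels), used Bowtie 2 and RepeatMasker to mask repeats, and ran DESeq2 between genotypes, with fdrtool for Lin- cells. The deposited tables hold the mean normalized count, the signal used here, and the comparison of genotypes with its fold change, error, p and peak marks, which were not used here. For eCLIP, the authors trimmed, mapped and deduplicated reads, called peaks with CLIPper in each library and removed those that overlap smInput peaks. Each peak carries a deposited p-value of at most 0.05. Settings of deduplication and peak calling in the file headers differ between eCLIP and smInput. The last number of a peak name, at least 3, was read as its reads, after CLIPper's convention. Absence of a peak does not show absence of binding, and read totals were not analysed here.

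Genes were joined by Ensembl ID. Peaks were merged where at least 1 base overlapped on the same strand, and located in GENCODE M21 by the middle base. Positions are in GRCm38 (mm10), counted from 1. Library counts were compared over biological replicates by exact permutation. Tools were Python 3.11.15, pandas 2.3.3, NumPy 2.4.6, SciPy 1.17.1, pysam 0.24.0, samtools 1.23.1 and matplotlib 3.10.9, and functions were tested on simulated data.

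Values in every library are given for 18 genes: those with a filtered peak in at least 2 biological libraries of 1 cell type or with at least 3 merged regions. Levels are named for the 5 highest and 5 lowest per kb in each table and by ratio, and sequences come from the regions in the most libraries. Splice acceptors and donors, the TG repeat, the background of genes with a mean of at least 100, Cdt1 beside the 38, Mcm7 left out and the Tk1 sequence were chosen after the data were seen. Alternatives covered the smInput filter, a CLIPper p below 0.001, the libraries, the merging distance, the motif, the location rule, the gene of a peak, the minimum mean, the pseudocount and the scaling.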

Additional observations from a re-analysis of the deposited data

Results flagged for a closer look

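Lin- smInput replicate 1 had 3 peaks on the 38 genes, far from the other 5 Lin- inputs, of which the highest had 1. Its gap to the nearest was 0.667 of the range of the 6, above the limit of Dixon's test for an outlying value, which chance passes in about 1 in 20 groups, in 1 of 4 groups of libraries examined, and with counts this small a single peak decides it. The cause was not tested.

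Cdt1, which has no entry in the tables used, had 9 filtered eCLIP peaks over the 6 Lin- libraries, while the smInput libraries had 0. Prim2 had the opposite pattern, with 7 smInput peaks, in 2 Lin- and 4 CD11b+ inputs, and no filtered peak in eCLIP. Of these, 6 lay on the same intronic stretch, chr1:33596624-33596642, with 3 to 25 reads and lengths of 12 to 19 bases. The causes of both were not tested.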

How the results depend on the processing

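There were 116 values under an alternative, for 15 results. Of these, 80 were labelled as the same, 34 as moved, 0 as reversed, and 2 passed the test threshold. The labels leave out the shares over all genes or regions, against which some results changed sides. In Lin- cells the intronic share was 93.7% against 77.5% by middle base, but 22.1% against 36.4% for regions wholly in an intron. CD11b+ genes with a peak went from 42.1% against 25.6% to 2.63% against 10.2% with at least 2 biological libraries. These labels follow no single tolerance. Labelled the same were a difference of 9.83 genes with a peak at a CLIPper p below 0.001, against 15.0, and a Lin- CA share of 1.89% without replicate 1, against 3.16%. So was a CD11b+ acceptor share of 30.8% in biological libraries, against 20.0%, while a median log2 ratio of 0.73, against 0.70, was labelled as moved. With technical libraries counted as samples, genes with a peak differed by 10 (exact permutation p = 0.0143) and peaks per 1000 by 3.77 (exact permutation p = 0.0190), but technical libraries are not independent. With a replicate block, in which libraries of the same number were paired, the differences were 14.5 and 4.29 (exact permutation by sign flips, p = 0.5 for both, the smallest 2 pairs allow). Leaving out 1 biological replicate gave 13.0 to 17.5 genes and 2.81 to 5.13 peaks per 1000.

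At a CLIPper p below 0.001, Lin- cells kept 20 genes and 39 regions, and CD11b+ cells 3 genes and 3 regions, of which 66.7% were intronic, 0% held a CA repeat and 0% crossed an acceptor. A peak in at least 2 biological libraries left 15 genes in Lin- and 1 in CD11b+ (39.5% and 2.63%, against 13.7% and 10.2% of all genes). Biological libraries alone gave 9 genes and 13 regions in CD11b+. What all genes gave at that p, or in biological libraries alone, was not examined. Regions with no base in an exon were 22.1% in Lin- and 65.0% in CD11b+, and CACA was in 13.7% of Lin- regions.

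Leaving out 1 biological replicate, over biological libraries alone, gave 53 to 73 Lin- regions with an acceptor share of 39.6% to 61.6%. In CD11b+ it gave 3 to 7 genes and 3 to 11 regions, with intronic shares of 66.7% to 81.8%, CA shares of 0% to 18.2% and acceptor shares of 18.2% to 66.7%. Fewer libraries give fewer regions by construction, and the share of all genes with a peak in these settings was not examined.

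The median percentile was 87.7 in Lin- and 84.5 in CD11b+ without a minimum mean, 73.2 and 65.4 among genes with a mean of at least 100, and 84.4 and 72.9 per kb of exon. The median log2 ratio was 0.73 with a pseudocount of 0.1, 0.55 with 10, 1.14 without rescaling and 0.43 with the median gene at 0. Beyond these settings, the cause was not tested. Limits are the 2 CD11b+ biological libraries, peaks of as few as 3 reads, unknown read totals, levels pooled over genotypes without a spread, and tables normalized separately.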
